A study of Mus musculus with 6 samples.

Results

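The genes considered here report recent signals through the T cell receptor (TCR) and comprise the 3 NR4A nuclear receptors (Nr4a1, Nr4a2 and Nr4a3), the early growth response factors Egr1, Egr2 and Egr3, the surface receptors CD5, CD6 and CD69, and the growth-promoting transcription factor gene Myc. They were chosen by symbol, and all 10 were found among the 32285 rows of the table and among the 17307 genes that passed the filter on low counts. Bulk RNA-seq was made from CD4+CD25+ regulatory T cells (Tregs) sorted from the spleens of C57BL/6 mice, with 3 libraries of WT cells and 3 of cells deficient in Zfp335, a zinc finger transcription factor. KO mice were ERCre Zfp335 fl/fl, and the control mice are called wild-type littermates in the sample labels and ERCre mice in the methods. Per the methods, both groups received tamoxifen from 6 weeks of age, as 100 μL of 10 mg/mL on days 1, 3 and 5, and were sacrificed on day 7. ERCre is a Cre recombinase fused to a mutant estrogen receptor domain that is switched on by tamoxifen and is not limited to Tregs, so other cells of the KO mice could also lose Zfp335. Whether the 3 libraries of a group came from separate mice is not given in the labels, so p values measure the spread between these libraries, which may be technical.

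When antigen engages the TCR, calcium and MAP kinase signals switch on a first wave of genes within minutes to hours, without new protein synthesis. The NR4A factors are orphan nuclear receptors whose activity follows their amount, and Nr4a1 transcript and reporter levels are used as a gauge of TCR signal strength. The EGR factors are zinc finger proteins induced through the ERK branch, and in Tregs, which see self antigen continually, both families are expressed at rest. CD5 and CD6 are scavenger receptor family proteins whose surface level is set over a longer time, CD69 is an early surface marker that holds cells in tissue, and MYC drives growth and ribosome production.

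Depth was between 133283969 and 209041812 counts per library, and levels are given as CPM, edgeR's unit of counts relative to the scaled library total. Zfp335 averaged 120.1 ± 4.67 CPM in the controls against 14.8 ± 0.451 CPM after deletion (SD, n = 3 libraries each), and Foxp3 and Il2ra, which define Tregs, averaged 1136 and 480 CPM in WT and 1052 and 433 CPM in KO. Xist averaged 0.272 CPM in WT and 134.6 CPM in KO while the 4 Y-linked genes examined were counted in all 6 libraries. Of these, Ddx3y, Kdm5d and Uty were lower in KO (log2 fold changes -0.38, -0.28 and -0.54, edgeR adjusted p = 9.96e-06, 0.000403 and 1.12e-05) and Eif2s3y was not called (0.011). Xist was 123.9, 135.2 and 144.7 CPM in KO libraries 1, 2 and 3, so each of them held both Xist and Y-linked transcripts. Whether a library pooled cells of several mice was not tested. The labels used here give no sex, so a difference in the sex of the source mice cannot be told apart from the genotype. Many transcripts of other cells were also lower in KO. The summed level of 6 B cell markers was 57.9 to 63.1 CPM in the WT libraries and 27.7 to 29.1 CPM in the KO libraries, that of 8 myeloid markers was 45.9 to 50.7 and 29.9 to 32.6 CPM, that of 6 neutrophil markers 18.6 to 25.2 and 1.25 to 1.87 CPM, and that of 5 red cell markers 36.5 to 43.4 and 1.81 to 2.31 CPM. All 6 B cell, 4 of 8 myeloid, all 6 neutrophil and all 5 red cell markers were called lower, and none of them was at 0 in all 6 libraries. Over all genes tested, 12.1% were called lower. The other 4 myeloid markers were not called, among them Csf1r, which averaged 8.80 CPM in WT and 10.3 CPM in KO. Lyz2, a myeloid marker called lower, averaged 19.7 CPM in WT and 7.36 CPM in KO. The 5 CD8 T and NK cell markers summed to 15.4 to 16.5 CPM in WT and 14.6 to 16.0 CPM in KO, with 1 called lower. The part of these other cells in the differences below was not tested. In bulk RNA, fewer cells of a type and less RNA per cell cannot be told apart.

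A difference was called at an adjusted p under 0.05 in the quasi-likelihood test of edgeR over all genes tested. By this rule 6 of the 10 genes were called, against 24.1% of all genes. Nr4a1, Nr4a2, Nr4a3 and Cd69 were higher in KO (4 of 10, against 12.0% of all genes), and Egr3 and Myc were lower (2 of 10, against 12.1%). The study gave cutoffs for DESeq2 on Tregs of other mice, of the Foxp3Cre strain, and these were applied here to the edgeR fit. They are at least 1.5-fold with P under 0.05 and adjusted P under 0.1. The 3 NR4A genes met them, as did 2.58% of all genes in this direction. In 4 genes every KO library lay above every WT library, a pattern held by 19.3% of all genes, and in Egr1, Egr2, Egr3 and Myc all KO values were under all WT values, a pattern held by 19.1%. The 2 transcription factor families therefore separated, with NR4A transcripts higher and EGR transcripts slightly lower or not called.

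**Figure D1:**
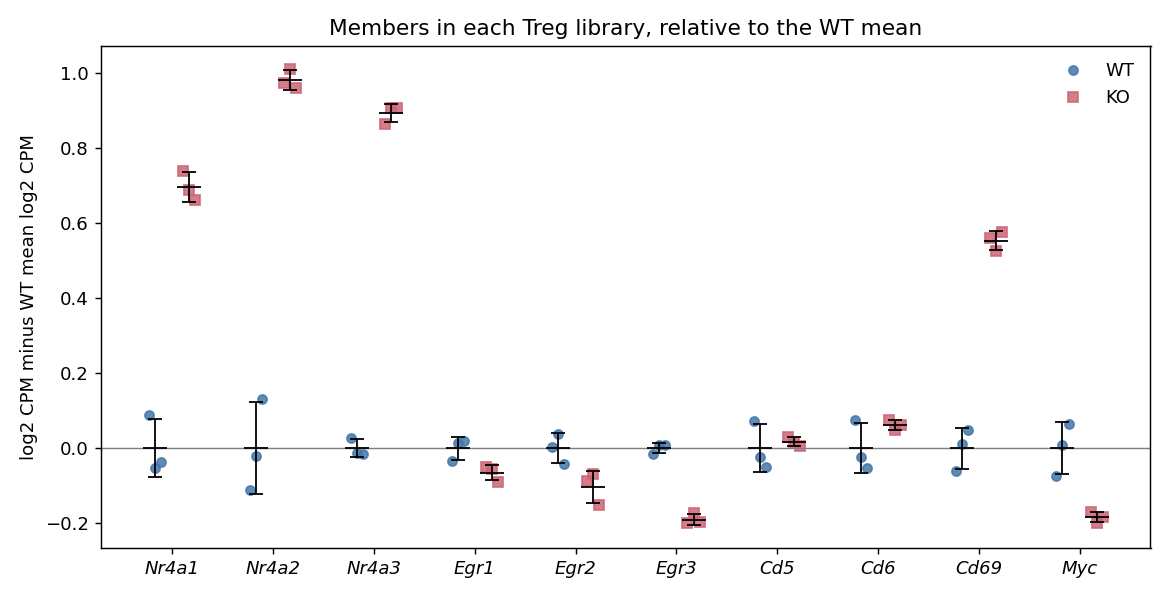
Level of each of the 10 genes in each Treg library, as log2 CPM minus the mean log2 CPM of the 3 WT libraries (vertical axis). Circles are WT and squares KO libraries, and bars give the mean and SD of 3 libraries. The KO libraries of Nr4a1, Nr4a2, Nr4a3 and Cd69 lie above the WT libraries, those of the EGR genes and Myc lie just below them, and Cd5 and Cd6 overlap.

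For the NR4A genes and Egr2 the stretch just before a RefSeq transcription start is shown. The RefSeq promoter table (GRCm38.p6) held 5 of the 10 genes, Nr4a1, Nr4a2, Nr4a3, Egr2 and Cd5. The 250 bases before the start, less those inside a GENCODE exon, are given from 5′ to 3′ on the strand of the gene. Capitals mark TGACG, or CGTCA where it lies on the other strand. This is a 5-base part, and not the whole, of the cyclic AMP response element (CRE) bound by CREB and ATF factors. The Nr4a1 stretch is chr15:101266596-101266845 (plus strand), that of Nr4a2 is chr2:57124004-57124253 (minus strand), that of Nr4a3 is chr4:48045055-48045152 (plus strand, 98 bases, since a GENCODE exon follows) and that of Egr2, for 1 of its 5 listed starts, is chr10:67537619-67537868 (plus strand). The Nr4a1 and Egr2 stretches lie inside the GENCODE gene intervals, in introns of longer transcripts.
Nr4a1: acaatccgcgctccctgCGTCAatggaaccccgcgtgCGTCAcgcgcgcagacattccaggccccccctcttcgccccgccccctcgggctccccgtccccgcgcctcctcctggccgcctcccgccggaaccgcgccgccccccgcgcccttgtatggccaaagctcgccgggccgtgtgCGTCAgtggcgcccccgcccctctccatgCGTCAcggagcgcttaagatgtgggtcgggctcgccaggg
Nr4a2: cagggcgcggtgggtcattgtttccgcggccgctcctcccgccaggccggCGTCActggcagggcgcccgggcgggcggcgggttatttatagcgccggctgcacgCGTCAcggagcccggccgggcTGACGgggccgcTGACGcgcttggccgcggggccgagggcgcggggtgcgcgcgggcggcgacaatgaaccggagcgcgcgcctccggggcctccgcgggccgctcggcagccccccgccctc
Nr4a3: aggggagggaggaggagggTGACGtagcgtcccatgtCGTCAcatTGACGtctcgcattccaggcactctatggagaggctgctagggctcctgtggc
Egr2: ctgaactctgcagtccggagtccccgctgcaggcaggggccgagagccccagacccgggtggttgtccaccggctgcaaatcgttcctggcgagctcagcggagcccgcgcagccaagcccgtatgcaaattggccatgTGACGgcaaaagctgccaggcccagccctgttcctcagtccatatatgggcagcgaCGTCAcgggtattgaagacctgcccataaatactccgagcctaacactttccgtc
In the full 250 bases each of the 3 NR4A genes held 4 copies of this 5-base part, none overlapping another. Of those of Nr4a3, 1 lay in the exon not printed. At least 4 copies were found in 0.137% of the 32851 promoters of the table. The motifs were searched after the sequences were seen, so this share is a description and not a test. The Egr2 stretch shown held 2 copies (3.9% of promoters held at least 2), and it held a CArG box, the site of serum response factor, which 1.47% of promoters held on either strand. Of the 5 Egr2 starts, 3 with overlapping stretches held these 2 copies and 2 held none, and 4 held a CArG box and 1 did not. No copy of TGACG was found before the start of Cd5. One copy of the EGR site GCGGGGGCG was found in the Nr4a1 stretch (2.57% of promoters held at least 1), and neither NBRE (AAAGGTCA, the NR4A monomer site, 1.34% of promoters) nor the AP-1 site TGACTCA (4.46%) was found in any of the 9 stretches of the 5 genes. The shares are over all promoters and were not matched for GC content, which was 74.4%, 80% and 63.6% before Nr4a1, Nr4a2 and Nr4a3. Of the EGR genes only Egr2 could be examined. These are matches of letters and carry no evidence of binding in Tregs, and their part in the differences was not tested.

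The NR4A transcripts were higher in KO. Nr4a1, the family member used in TCR reporter mice, lies on chromosome 15 of GRCm38 from 101254269 to 101274795. It was 941, 854 and 863 CPM in WT libraries 1, 2 and 3 and 1479, 1427 and 1401 CPM in KO libraries 1, 2 and 3. All KO libraries were well above the highest WT library. The difference was 1.62-fold (log2 fold change 0.70, standard error 0.040, 95% interval 0.61 to 0.78, edgeR adjusted p = 5.44e-08).

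Nr4a2, on chromosome 2 from 57106830 to 57124003, was 37.2, 39.6 and 44.1 CPM in WT and 79.0, 81.1 and 78.3 CPM in KO. The lowest KO library was far above WT library 3, the highest of the controls. This was the largest of the 10 differences, at 1.98-fold (log2 fold change 0.98, standard error 0.053, 95% interval 0.87 to 1.10, edgeR adjusted p = 2.77e-08). Nr4a3, on chromosome 4 from 48045153 to 48086447, was 94.6, 92.0 and 91.7 CPM in WT and 169, 174.1 and 173.9 CPM in KO. The 3 libraries of each group were close to each other and the groups were far apart. Its difference was 1.86-fold (log2 fold change 0.89, standard error 0.033, 95% interval 0.82 to 0.97, edgeR adjusted p = 8.51e-10). Nr4a3 and Nr4a2 are the members whose loss, together with that of Nr4a1, is known to impair Treg development.

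Per length of exon, counted over all annotated exons of a gene, Nr4a1 held most of the family's RNA in both groups. Its share of the summed CPM per kilobase was 90.8% ± 0.573 in WT and 89.4% ± 0.357 in KO, and that of Nr4a3 was 5.58% ± 0.171 and 6.30% ± 0.247 (SD, n = 3 libraries each). Nr4a2 made up 3.59% ± 0.432 in WT and 4.28% ± 0.121 in KO. In all 3 cases the groups did not overlap (two-sided exact permutation p = 0.1 for each, the lowest value this design can reach). The 3 shares of a library add up to the whole, so these are not separate results. In these libraries the 2 minor members stood slightly higher against Nr4a1 in KO.

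The EGR transcripts did not follow the NR4A transcripts. Egr1, on chromosome 18, was 257, 266 and 267 CPM in WT and 254, 253 and 247 CPM in KO. The groups did not overlap but lay close to each other. The log2 fold change was -0.065 (standard error 0.032, 95% interval -0.13 to 0.0040, edgeR adjusted p = 0.169), so Egr1 was not called, and the interval spans from a decrease to 0.911 of the WT level to an increase to 1.003 of it. Without WT library 1, with library totals as the only scaling or after removal of a trend with GC content, Egr1 was called lower (edgeR adjusted p = 0.0399, 0.045 and 0.0429).

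Egr2, on chromosome 10 from 67535475 to 67542188, is linked with Egr3 to the restraint of T cell responses. It was 45.6, 46.6 and 44.1 CPM in WT and 42.8, 43.3 and 40.9 CPM in KO, all KO libraries being just below the lowest WT library. The log2 fold change was -0.10 (standard error 0.042, 95% interval -0.19 to -0.013), and it was not called (edgeR adjusted p = 0.0963). With library totals as the only scaling it was called lower (edgeR adjusted p = 0.0351). Egr3, on chromosome 14 from 70077203 to 70082614, was 43.7, 44.4 and 44.4 CPM in WT and 38.5, 39.2 and 38.5 CPM in KO. Both groups were tight and did not overlap. Egr3 fell to 0.877 of the WT level (log2 fold change -0.19, standard error 0.039, edgeR adjusted p = 0.00317).

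Ratios of counts within a library need no scaling between libraries. Those of the NR4A to the EGR genes were higher in every KO library than in any WT library. They draw on the same counts as the fold changes above and are not separate evidence. The log2 ratio of Nr4a1 to Egr1 was 1.87, 1.68 and 1.69 in WT and 2.54, 2.49 and 2.50 in KO, a difference of 0.76. The Nr4a2 to Egr2 and Nr4a3 to Egr3 ratios rose by 1.08 each on this log2 scale. The mean log2 CPM of the 3 NR4A genes minus that of the 3 EGR genes was 0.88 ± 0.042 in WT and 1.86 ± 0.010 in KO (SD, n = 3 libraries each, two-sided exact permutation p = 0.1). Among the EGR genes, the Egr1 to Egr2 ratio overlapped between groups (log2 ratio 2.53 ± 0.054 in WT and 2.57 ± 0.023 in KO, SD, n = 3 each, exact permutation p = 0.4).

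**Figure D2:**
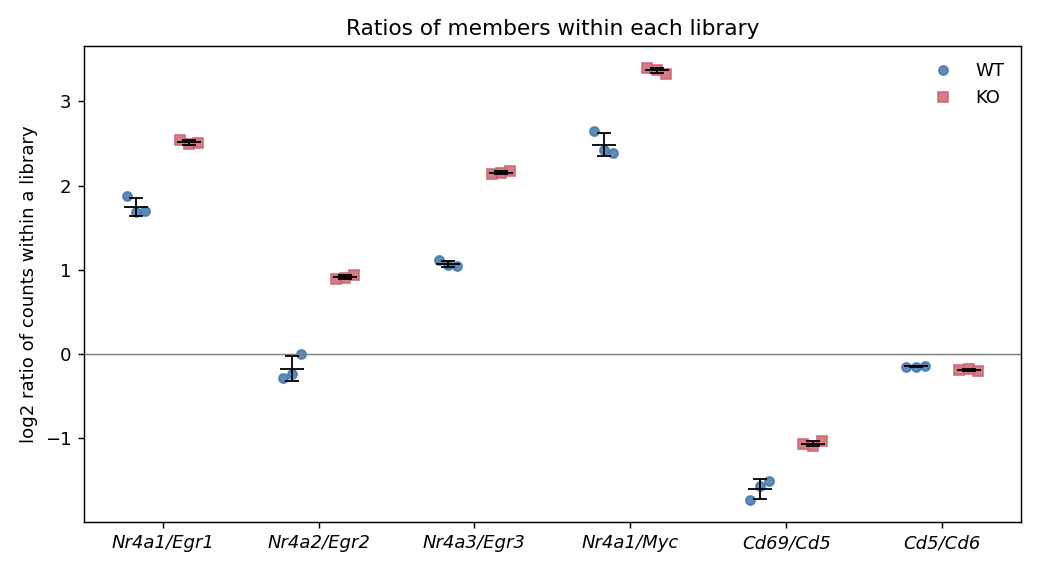
Log2 ratio of the counts of pairs of genes within each library (vertical axis) for 6 pairs. Circles are WT and squares KO libraries, and bars give the mean and SD of 3 libraries. The Nr4a1 to Egr1 ratio averages 1.75 in WT and 2.51 in KO, and the Cd5 to Cd6 ratio is -0.15 and -0.20.

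The surface receptors split as well, since Cd69 was higher in KO and Cd5 and Cd6 were not called. Cd69 encodes a C-type lectin that binds the sphingosine 1-phosphate receptor S1PR1 and draws it from the cell surface. The gene lies on chromosome 6 from 129267325 to 129275436. It was 209.2, 219.7 and 225 CPM in WT and 321, 314 and 325 CPM in KO, and no library of one group came near the other group. The difference was 1.47-fold (log2 fold change 0.55, standard error 0.035, 95% interval 0.48 to 0.63, edgeR adjusted p = 1.33e-07), just under the 1.5-fold cutoff of the study.

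Cd5, whose protein lowers TCR signals and whose level tracks the strength of self recognition, lies on chromosome 19 from 10717116 to 10739002. It was 697, 652 and 641 CPM in WT and 677, 671 and 665 CPM in KO, the KO libraries lying inside the WT range. The log2 fold change was 0.016 (standard error 0.036, 95% interval -0.061 to 0.094, edgeR adjusted p = 0.796). For these libraries and this scaling the interval spans 0.958 to 1.07 of the WT level. With library totals as the only scaling the log2 fold change was -0.014. Cd6, its neighbour and relative on chromosome 19 from 10789341 to 10830058, was 775, 725 and 709.8 CPM in WT and 776, 761 and 768 CPM in KO. WT library 1 was level with the KO libraries, and the other WT libraries were lower. The log2 fold change was 0.061 (standard error 0.036, 95% interval -0.017 to 0.14, edgeR adjusted p = 0.261), and without WT library 1 Cd6 was called higher, at 0.098 (edgeR adjusted p = 0.0137).

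The Cd69 to Cd5 log2 ratio was -1.60 ± 0.119 in WT and -1.07 ± 0.032 in KO (SD, n = 3 libraries each, two-sided exact permutation p = 0.1). The Cd5 to Cd6 log2 ratio was nearly constant within groups, at -0.15 ± 0.0022 in WT and -0.20 ± 0.014 in KO.

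Myc, on chromosome 15 from 61985391 to 61990374, was lower in KO. It was 150.1, 159 and 165 CPM in WT and 140.2, 138 and 139 CPM in KO, and WT library 1 was the WT library nearest to the KO libraries. Myc fell to 0.880 of the WT level (log2 fold change -0.18, standard error 0.038, 95% interval -0.27 to -0.10, edgeR adjusted p = 0.00333). Relative to Myc within a library, Nr4a1 had a log2 ratio of 2.49 ± 0.141 in WT and 3.37 ± 0.034 in KO (SD, n = 3 libraries each).

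Levels were set beside each other between genes per length of exon, counted over all annotated exons of a gene. This length was 6.51 kb for Cd69 and 7.97 kb for Cd6. Shorter transcripts in these cells would have a higher level per length, so the order depends on the length used. In WT the order from high to low CPM per kilobase was Nr4a1 (252 ± 13.6), Cd5 (135 ± 6.09), Cd6 (92.4 ± 4.28), Egr1 (58.7 ± 1.22), Myc (58.2 ± 2.79), Cd69 (33.5 ± 1.26), Nr4a3 (15.5 ± 0.267), Egr2 (13.4 ± 0.371), Egr3 (10.03 ± 0.0976) and Nr4a2 (9.94 ± 0.856), each SD over 3 libraries. Egr1 and Myc overlapped in this order, as did Egr3 and Nr4a2. In KO, Nr4a1 reached 409 ± 11.3 and Cd69 49.2 ± 0.875, close under Myc at 51.2 ± 0.481. Nr4a2, the lowest in WT, stood above Egr2 and Egr3 in KO, at 19.6 ± 0.362 against 12.5 ± 0.363 and 8.79 ± 0.0864 CPM per kilobase.

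**Figure D3:**
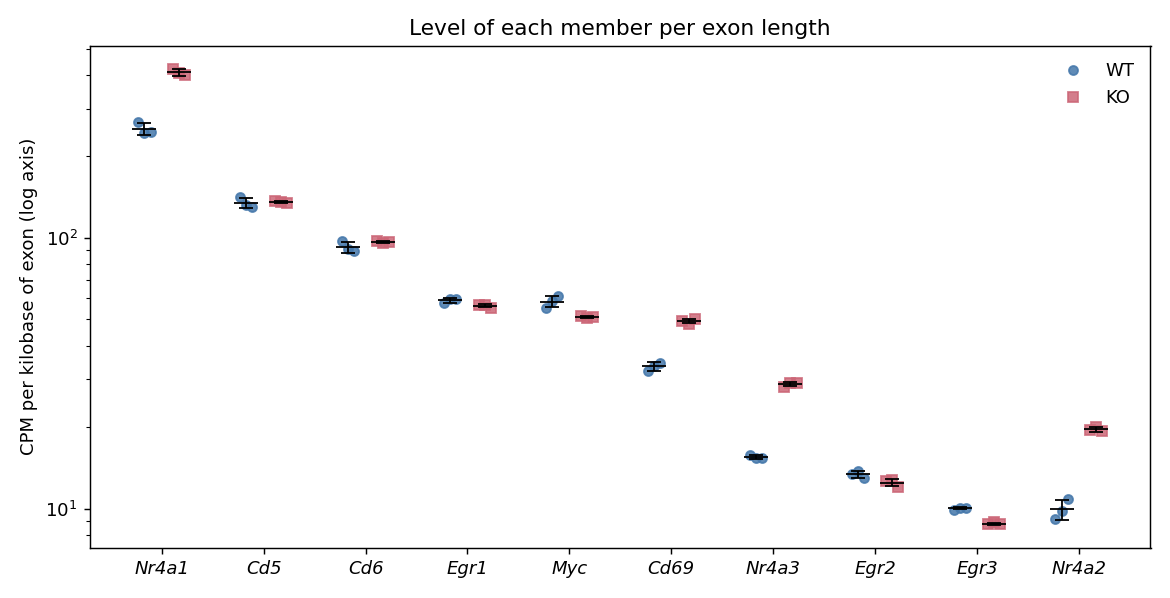
CPM per kilobase of exon (vertical log axis) of the 10 genes in order of their WT level. Circles are WT and squares KO libraries, and bars give the mean and SD of 3 libraries. Nr4a1 is the highest in both groups, at 252 in WT and 409 in KO, and Nr4a2 moves from 9.94 to 19.6, past Egr2 and Egr3.

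The other early response genes mostly moved with the NR4A genes. Of 36 such genes, all tested, 31 were called higher and 1 lower in KO, against 12.0% and 12.1% of all genes. The other 4 were not called (Ier3, Dusp2, Nfkb1 and Zfp36). The median log2 fold change of the 36 genes was 0.44, against -0.0042 over all genes. Their summed level was 17190 to 18026 CPM in the WT libraries and 23850 to 24271 CPM in the KO libraries. The list was chosen with earlier results of these data known, so these values describe it and are not an independent test. The largest increases were in Dusp10, a phosphatase of stress-activated MAP kinases, at a log2 fold change of 1.48, in Fosl2, an AP-1 subunit, at 1.41, and in Bhlhe40, a repressor linked to T cell activation, at 1.29 (standard errors 0.048, 0.045 and 0.032, edgeR adjusted p = 3.54e-10, 3.28e-10 and 3.03e-11). The 1 gene that fell was Fos, the founding AP-1 subunit, from 1023, 1031 and 1067 CPM in WT to 892, 900.4 and 893 CPM in KO (log2 fold change -0.22, standard error 0.031, edgeR adjusted p = 0.000211). Fos thus stood with Egr3 and Myc below the other early response genes, while Fosl2 stood above all 3 NR4A genes.

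**Figure D4:**
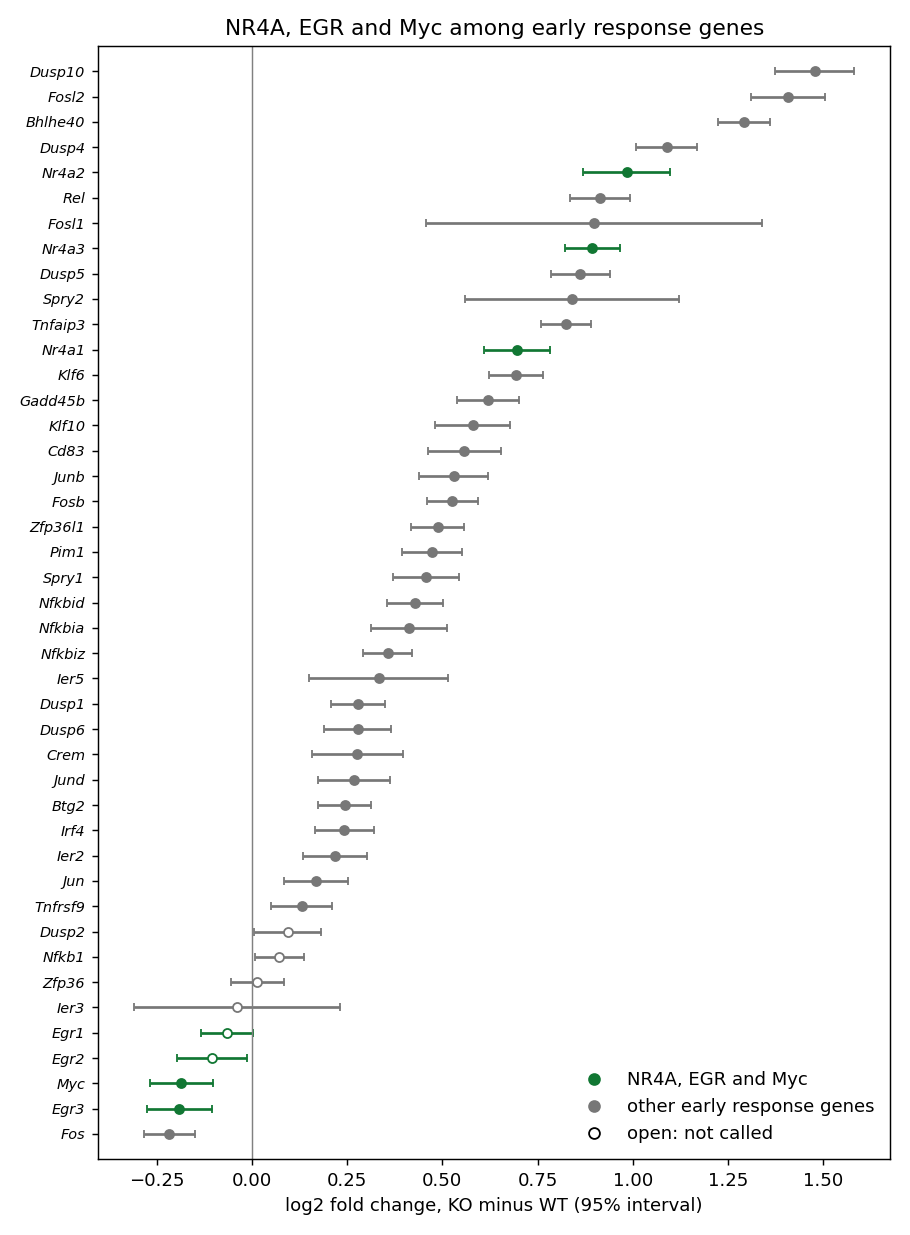
Log2 fold change of KO against WT (horizontal axis, bars give the 95% interval from edgeR) for 36 early response genes in grey and the NR4A, EGR and Myc genes in green. Open circles were not called. The NR4A genes lie in the upper part at 0.70 to 0.98, and the EGR genes and Myc lie at the foot with Fos at -0.22.

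Transcripts of the pathway above these genes differed by smaller amounts. Of 16 genes of the ERK, SRF, NFAT and MEF2 branches, 6 were called higher and 2 lower, against 12.0% and 12.1% of all genes. The median log2 fold change of the list was 0.054. Mef2d, a MEF2 factor that acts on the Nr4a1 promoter, was the largest, at 0.34 (edgeR adjusted p = 2.96e-06), followed by the MEF2 corepressor Hdac7 at 0.20 and Mef2a at 0.17 (edgeR adjusted p = 0.00256 and 0.00686). The kinase gene Mapk3 fell by 0.17 on the log2 scale (edgeR adjusted p = 0.0102), and Srf was not called (log2 fold change -0.063). Of the paralog, corepressors and dimer partners of the 2 families, 5 of 6 were tested and 1 was called, the EGR corepressor Nab2, which was lower at -0.15 (edgeR adjusted p = 0.0239). The call of Nab2 was lost without WT library 2 (-0.16), KO library 2 (-0.15) or KO library 3 (-0.13), and that of Mapk3 without KO library 2 (-0.17) or 3 (-0.14).

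Genes with published links to the 2 families were mixed. Of 10 feedback and anergy genes linked to EGR2 and EGR3, 4 were called higher and none lower, against 12.0% and 12.1% of all genes. The median log2 fold change of the list was 0.12. Fasl, the death ligand, rose by 0.78, the inhibitory receptor Lag3 by 0.52 and the cytokine feedback gene Socs3 by 0.31 on the log2 scale (edgeR adjusted p = 2.63e-05, 2.39e-06 and 2.40e-05). Of 10 Treg and inhibitory receptor genes linked to NR4A factors, 2 were called higher and 3 lower, with a median of -0.097. Ctla4, which takes costimulatory ligands from other cells, was higher at 0.65 and Tox2 at 0.40, while Pdcd1 (-0.22), Il2ra (-0.15) and Foxp3 (-0.11) were lower (edgeR adjusted p = 9.56e-09, 8.54e-05, 0.0090, 0.00658 and 0.0163). The call of Foxp3 was lost without KO library 1, 2 or 3 (-0.12, -0.11 and -0.11) and that of Il2ra without KO library 2 (-0.14). The lists rest on published links and not on binding in these cells.

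Of 17 ligands and signaling partners of CD5 and CD6, 4 were called higher and 3 lower, against 12.0% and 12.1% of all genes. The median log2 fold change of the list was 0.021. The ubiquitin ligase Cblb was among those higher, at 0.18 (edgeR adjusted p = 0.00361), and the casein kinase subunit Csnk2b among those lower, at -0.20 (edgeR adjusted p = 0.0109, not called without KO library 3, at -0.19). Of 7 tissue exit genes, 3 were higher and 2 lower, with a median of -0.081. Ccr7, a lymph node homing receptor, rose by 0.91, and S1pr1, the receptor that CD69 binds, and its activator Klf2 rose by 0.20 each on the log2 scale alongside Cd69 (edgeR adjusted p = 5.24e-10, 0.000549 and 0.0047), while S1pr4 (-0.28) was lower (edgeR adjusted p = 0.000448).

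Around Myc, 6 of 13 partners and antagonists were called higher and 2 lower, against 12.0% and 12.1% of all genes. The median log2 fold change of the list was 0.066. Mxd1 and Mnt, both repressors that compete with MYC for MAX, rose by 0.51 and 0.46 and Fbxw7, which marks MYC for decay, by 0.24 on the log2 scale (edgeR adjusted p = 1.45e-07, 7.36e-07 and 0.00368). Mxd3 and Mlx were lower, at -0.34 and -0.23 (edgeR adjusted p = 0.0171 and 0.00361), and Mxd3 was not called without WT library 2 (-0.31) or KO library 1 (-0.28). Of 25 growth and ribosome-making targets of MYC, 7 were called higher and 1 lower, with a median of 0.057, so these did not fall with Myc. Odc1, the first enzyme of polyamine synthesis, rose by 0.53, Gnl3 by 0.38 and Nop56 by 0.28, and the cyclin gene Ccnd2 was lower, at -0.22 (edgeR adjusted p = 6.03e-08, 2.25e-05, 5.26e-05 and 0.000217).

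Early response genes also rise while tissue is handled, so heat shock genes and the stress factor Atf3 were examined. Of these 9 genes, 2 were called higher and 2 lower, against 12.0% and 12.1% of all genes. The median log2 fold change of the list was -0.033. Atf3, which is not a heat shock gene, was higher at 0.67. Hspa1a was higher at 0.26, and Hsph1 and Dnajb1 were lower at -0.18 and -0.15 (edgeR adjusted p = 8.58e-06 for Atf3, then 0.00468, 0.000872 and 0.00557). The part of handling in the early response differences was not tested.

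**Figure D5:**
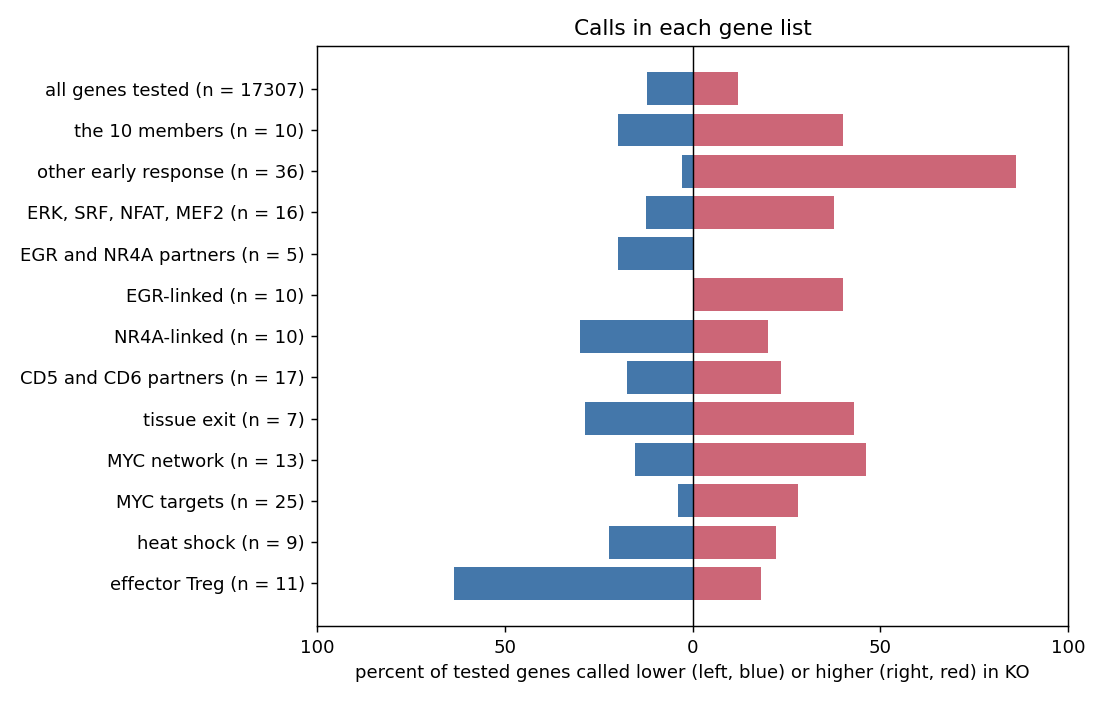
Percent of tested genes called lower (left, blue) or higher (right, red) in KO for all genes, the 10 genes and 11 lists of related genes. All genes tested stand at 12.1% lower and 12.0% higher, and the early response list, with 31 of 36 higher and 1 lower, stands furthest to the right. The lists were chosen with earlier results of these data known.

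Genes beside the 10 genes on the chromosome did not share their differences in a uniform way. Clec2d, next to Cd69 and a C-type lectin gene of the same cluster, was lower, going from 51.1 ± 7.67 CPM to 31.5 ± 1.86 CPM (SD, n = 3 libraries each, log2 fold change -0.69, edgeR adjusted p = 0.00407), while Cd69 was higher. Grasp and Atg101, on either side of Nr4a1, were higher at 0.21 and 0.35, and Sec61b beside Nr4a3 was lower at -0.22 (edgeR adjusted p = 0.0249, 0.00255 and 0.00993). Grasp was not called without WT library 2 or 3 or without any 1 of the KO libraries (0.18 to 0.22), nor Sec61b without KO library 3 (-0.18). None of the 10 genes overlaps another annotated gene, and at most 0.15% of the 50-base stretches of any of them occur in transcripts of other genes.

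Within groups, the genes did not vary as 1 unit. Over deviations from the group means in 6 libraries, which share depth and scaling, Cd5 and Cd6 had a Pearson correlation of 0.98 and Cd69 and Myc of 0.94, whereas Nr4a1 and Nr4a2 had -0.61 and Nr4a1 and Cd69 had -0.76. The genes most like Nr4a1 by this measure were Pcbp4, Traf7, Ppt2, Pgghg and Znhit2, those most like Egr1 were Haus6, Reep4, Nob1, Atp5j2 and Pknox1, and those most like Cd69 were Zmym2, Xrn2, Fam168a, Gyg and Mbnl3, all with a correlation of at least 0.994. None of these 15 genes was called between WT and KO, against 24.1% of all genes. They were picked by their deviations within groups, and no result about them is drawn from this count. The 6 libraries in 2 groups give little ground for such a ranking, and it is given as a description.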

How the data were processed

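RNA-seq of splenic CD4+CD25+ Tregs was analyzed in 3 WT and 3 KO libraries, grouped by the sample labels. The table the authors deposited holds raw counts by gene symbol, not scaled between libraries. The submitters' processing notes name HISAT2, DESeq2 and the build mm10, and the extract protocol gives a TruSeq RNA kit. The counting program, annotation and strand setting are not given in the sources used here. Of 32285 rows, 40 repeat a symbol, and of these the row of highest count was given the plain symbol. Entries of 1 count (620) were rarer than entries of 4 (2579), so no counting error was derived from the depth of 133283969 to 209041812 counts per library.

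The quasi-likelihood test of edgeR 4.0.16 (R 4.3.3) was run with robust dispersions, TMM scaling and the filterByExpr filter on both groups, with Benjamini-Hochberg adjustment over 17307 genes. CPM used TMM-scaled totals, and log2 CPM had a prior count of 2. The scripts were tested on simulated counts. Alternatives were other scalings and filters, DESeq2 1.42.0, limma-voom (limma 3.58.1), edgeR's legacy test, counts divided by 4, leaving out gene classes or each library, the replicate number as a block and, added after the data were seen, removal of the GC trend and of marker genes. The 10 genes and the 17 other lists were chosen with earlier results of these data known. From each list the text names those called with the 3 largest differences in each direction at a mean of at least 5 CPM, those not called where needed, the 5 genes most like Nr4a1, Egr1 and Cd69 at a mean of at least 10 CPM, and chromosomal neighbours. Some genes that this rule would name are not reported here. Positions and exon lengths are from GENCODE vM21 (GRCm38, the build called mm10), matched by symbol, and promoters from RefSeq. Motifs were searched on both strands after the sequences were seen.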

Additional observations from a re-analysis of the deposited data

How the results depend on the processing

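Under all 19 alternatives Nr4a1 (log2 fold change 0.67 to 0.74), Nr4a2 (0.93 to 1.05), Nr4a3 (0.86 to 0.91), Cd69 (0.52 to 0.63), Egr3 (-0.22 to -0.18) and Myc (-0.22 to -0.15) kept their direction and their call. With library size as the only scaling, which moved the median of all genes from -0.0042 to -0.035, 4 genes were called lower, as Egr1 (-0.096, edgeR adjusted p = 0.045) and Egr2 (-0.13, edgeR adjusted p = 0.0351) joined Egr3 and Myc, and Cd5 turned to -0.014. With the GC trend removed, Egr1 was called lower (-0.097, edgeR adjusted p = 0.0429), Cd5 turned to -0.013 and 4 genes met the study's cutoffs. With each library left out in turn, 6 to 8 of the genes were called, 4 to 5 higher and 2 to 3 lower, and 3 met the study's cutoffs each time. Egr1 ranged from -0.083 to -0.052, Egr2 from -0.12 to -0.079, Cd5 from -0.0073 to 0.052 and Cd6 from 0.036 to 0.098, with Egr1 and Cd6 called without WT replicate 1 (edgeR adjusted p = 0.0399 and 0.0137). Cd5 was negative without WT replicate 3, at -0.0073. The early response genes called higher numbered 29 to 32 over all alternatives, and all genes called numbered 2740 to 4996, the lowest without WT replicate 2 and the highest without WT replicate 1. The cause of these changes was not tested. Of 1115 values for 59 other genes, 1044 kept direction and call, 71 lost the call and 0 reversed.

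Same-numbered libraries did not deviate together (correlations 0.028, 0.0082 and 0.033), and the replicate numbers were therefore read as names only. With the replicate block 6 genes were called, 4 higher and 2 lower and the log2 fold changes of Nr4a1, Egr1 and Cd69 were 0.70, -0.065 and 0.55.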

Other observations

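Most effector Treg genes were lower in KO. Of 11 such genes, 7 were called lower and 2 higher in KO, with a median log2 fold change of -0.22 (12.1% and 12.0% of all genes were called lower and higher). Gzmb, a protease of killing granules, was lower at -0.57, the chemokine receptor gene Cxcr3 at -0.49 and Il1rl1, the IL-33 receptor, at -0.41 (edgeR adjusted p = 2.06e-06, 1.71e-05 and 7.97e-05). The exceptions were the suppressive cytokine Il10, which was higher at 0.93, and the AP-1 family factor Batf, at 0.13 (edgeR adjusted p = 3.00e-08 and 0.0246). Batf was not called without WT library 2 or 3, without any 1 of the KO libraries (0.11 to 0.14), or with upper-quartile or no scaling factors or the GC trend removed (0.12, 0.10 and 0.10). Il10 went from 19.8 CPM in WT to 37.7 CPM in KO on average. Of 9 Treg identity genes, 2 were higher and 3 lower, with a median of -0.054, and Ikzf2, Cd4, Cd3d and Cd3e were not called.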
